A study of Mus musculus with 16 samples.

Results

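T-type calcium channels and HCN channels are the membrane channels that give thalamic neurons their rhythmic, burst-firing behaviour. Their genes were measured here by RNA-seq in punches of mouse brain labelled as ventral posterolateral thalamus. The genes were found by matching the Ensembl IDs of the count tables to the mouse GENCODE annotation, and they are 6 of the 38924 genes counted: Cacna1g, Cacna1h and Cacna1i for the T-type pore subunits, and Hcn2, Hcn3 and Hcn4 for the HCN channels. All 6 passed the filter on low counts.

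The study had 16 libraries in 4 groups of 4. These were mice labelled RGS4 KO with CFA treatment, WT mice with CFA treatment, naive mice labelled RGS4 KO and naive WT mice. CFA, complete Freund's adjuvant, is an injected mixture used to cause lasting inflammatory pain, and RGS4 is a protein that shortens signalling through G protein-coupled receptors. The series describes a floxed RGS4 line with Cre carried by an adeno-associated virus into this nucleus, while the sample labels say KO and give no virus, so whether WT mice received one cannot be told from them. Each replicate pooled bilateral punches from 2 mice, so the values are of pooled tissue. The labels give the sex as female and the protocol names male mice. The level of Xist, an RNA of female cells, is given below. Age is not given in the sources used here.

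A T-type channel opens at voltages close to rest and inactivates quickly, and it must be hyperpolarised before it can open again. The calcium spike that results carries a burst of action potentials, the firing mode of the thalamus in sleep and in absence seizures. HCN channels open on hyperpolarisation, carry the inward pacemaker current, and shift their voltage range when cyclic AMP binds to them. In the rodent thalamus, Cacna1g is the main T-type gene of relay neurons, Cacna1h and Cacna1i are found in the inhibitory reticular neurons, and Hcn2 and Hcn4 are the main HCN genes of relay neurons.

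The libraries held 18057885 to 78773967 counts in genes. Rgs4, the targeted gene, had 77.5 to 90.2 CPM (counts scaled to a common library size) in the CFA libraries labelled KO, against 81.1 to 96.8 CPM in WT CFA libraries, and 78.0 to 84.5 CPM in naive libraries labelled KO, against 77.3 to 85.2 CPM in naive WT libraries. Its log2 fold change was -0.09 in CFA libraries (edgeR adjusted p = 0.52) and 0.01 in naive libraries (adjusted p = 0.979). The gene-level counts thus did not show the label, and which exons the allele deletes is not given in the sources used here, so the groups are called libraries labelled KO throughout and every direction below rests on that label. Of 12 relay neuron markers, Slc17a6, the vesicular glutamate transporter gene, averaged 470.2 CPM over the 16 libraries, Tcf7l2 138.5 CPM and Ntng1 67.7 CPM, and the other 9 lay between 0.0802 CPM for Gbx2, which was at 0 in its lowest library, and 25.5 CPM for Plekhg1. These included Tnnt1 at 1.01 CPM, Ramp3 at 2.66 CPM and Prkcd at 14 CPM. The serotonin neuron gene Tph2 averaged 326 CPM and spanned 58.9 to 646 CPM, and Slc6a4, the serotonin transporter gene, averaged 252 CPM. The values below are thus of punches that held transcripts of serotonin neurons, not of relay neurons alone. Xist had 560 to 750 CPM over the 16 libraries, so each library held tissue of female mice, as the labels say. A male mouse beside a female one in a pool cannot be told from this. In tissue of this kind, fewer cells of a type and less RNA per cell cannot be told apart.

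The 6 genes lie on 6 chromosomes (mm10). Cacna1g (ENSMUSG00000020866.11) covers chr11:94408391-94474198 on the minus strand, Cacna1h (ENSMUSG00000024112.10) chr17:25374285-25433783 on the minus strand, and Cacna1i (ENSMUSG00000022416.9) chr15:80287238-80398279 on the plus strand. Hcn2 (ENSMUSG00000020331.3) covers chr10:79716634-79736108 on the plus strand, Hcn3 (ENSMUSG00000028051.4) chr3:89146074-89160196 on the minus strand, and Hcn4 (ENSMUSG00000032338.8) chr9:58823412-58863175 on the plus strand. The counts are over the exons of each gene.

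The stretch that codes for the end of the pore helix, the selectivity filter and the residues after it is shown for the HCN genes because it carries the filter motif that all 3 share. It lies in exon 4 of 8 in each gene, in mm10 at chr10:79728929-79728991 (plus strand) for Hcn2, chr3:89150982-89151044 (minus strand) for Hcn3 and chr9:58855561-58855623 (plus strand) for Hcn4. Capitals mark the codons of the glycine-tyrosine-glycine motif of the filter, which potassium channels share.
Hcn2: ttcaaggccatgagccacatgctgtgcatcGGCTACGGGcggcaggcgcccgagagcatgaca
Hcn3: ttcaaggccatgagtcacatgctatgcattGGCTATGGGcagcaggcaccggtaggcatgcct
Hcn4: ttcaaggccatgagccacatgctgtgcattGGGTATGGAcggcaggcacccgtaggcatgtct
Of the 63 bases, Hcn2 and Hcn3 differed at 12 (81.0% identical), Hcn2 and Hcn4 at 10 (84.1% identical), and Hcn3 and Hcn4 at 7 (88.9% identical). Over the whole coding sequences, the longest stretch with no difference was 33 bases between Hcn2 and Hcn3 and 32 bases for each of the other HCN pairs. Between T-type genes it was 41 bases for Cacna1g and Cacna1h, 50 for Cacna1h and Cacna1i, and 68 for Cacna1g and Cacna1i. A read inside the longest shared stretch of a pair could not be given to one gene, and reads with more than one alignment were left out of the gene counts.

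Hcn2 was the most abundant of the 6 channel genes per length of exon, and Hcn4 the least. On the scale of CPM per kb of exon, Hcn2 averaged 70.5 ± 9.73, Cacna1g 17.2 ± 1.03, Cacna1i 11.3 ± 0.669, Hcn3 9.51 ± 0.701, Cacna1h 6.96 ± 0.337 and Hcn4 1.86 ± 0.153 (SD, n = 16 libraries). The level of Hcn2 was 4.14 ± 0.744 times that of Cacna1g, the next in the order, and lay above it in 16 of 16 libraries. Cacna1i and Hcn3 are the neighbours whose ranges overlapped on this scale, at 10.1 to 12.4 and 8.15 to 11.1 CPM per kb, and Cacna1i was the higher in 15 of 16 libraries. The ranges of the other neighbours did not overlap, although those of Hcn3 and Cacna1h did when the length of the longest transcript was used in place of all exons. Of the exon bases of Hcn3, 17.1% are shared with Pklr, a gene on the opposite strand, and reads there cannot be divided. The place of Hcn3 in the order, and its share below, could therefore be too low.

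**Figure D1:**
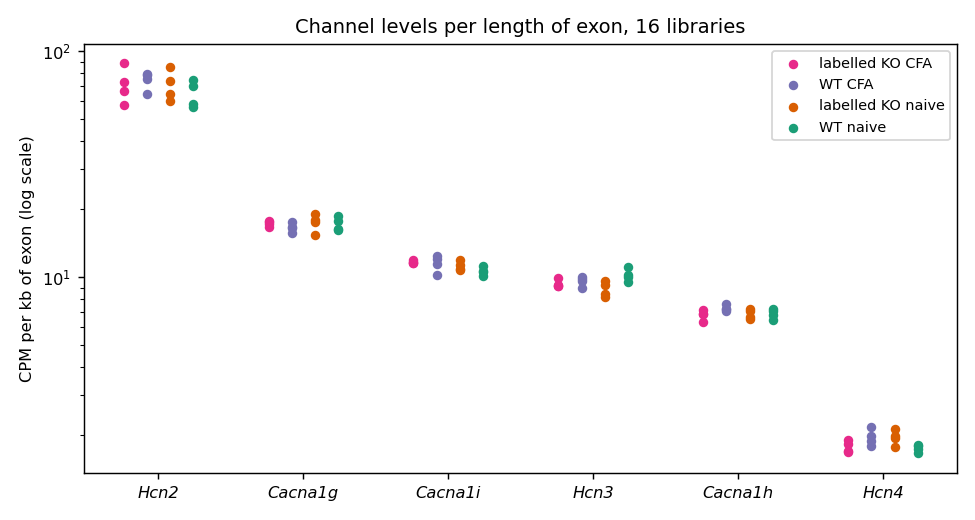
Levels of the 6 channel genes in CPM per kb of exon (log scale), 1 point per library, with libraries coloured by group. Hcn2 stands above the other genes at a mean of 70.5 and Hcn4 below them at 1.86. In every gene the groups overlap between genotypes within a treatment and between treatments within a genotype.

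Within the T-type family Cacna1g made up 48.5 ± 1.90% of the summed level per kb, Cacna1i 31.9 ± 1.77% and Cacna1h 19.7 ± 1.07% (SD, n = 16). Of the summed level of the 3 HCN genes counted here, Hcn2 made up 85.9 ± 1.84%, Hcn3 11.8 ± 1.70% and Hcn4 2.29 ± 0.223%. The share of Hcn3 was 10.98 ± 1.90% in naive libraries labelled KO and 13.4 ± 1.17% in naive WT libraries (SD, n = 4 each). In CFA libraries it was 11.5 ± 1.88% in those labelled KO and 11.2 ± 1.05% in WT.

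Hcn2, the broadly expressed HCN gene whose loss in mice gives absence seizures, varied most from library to library. In CFA libraries it had 282, 233, 185 and 213 CPM in those labelled KO, against 207, 239.8, 251 and 253 CPM in WT. In naive libraries it had 207, 237, 193 and 274 CPM in those labelled KO, against 224, 182, 187 and 238 CPM in WT. The groups overlap throughout: the highest library is one labelled KO with CFA and the lowest a naive WT one, 1.55 times apart. The CV over all 16 libraries was 13.8% for Hcn2, while that of the other 5 members lay between 4.85% for Cacna1h and 8.20% for Hcn4.

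Hcn3, an HCN gene with weak response to cyclic AMP, came closest to a call. In naive libraries it had 33.9, 38.4, 40.1 and 35.1 CPM in those labelled KO, against 46.0, 41.6, 39.6 and 42.4 CPM in WT. In CFA libraries it had 38.0, 38.1, 38.4 and 41.0 CPM in those labelled KO, against 40.6, 37.3, 39.8 and 41.6 CPM in WT. In naive mice 3 of the 4 libraries labelled KO lie below the lowest WT library and the fourth lies just above it, while in CFA mice the ranges lie nearly on top of each other. Pklr, a gene on the opposite strand, shares 711 exon bases with Hcn3, which are 17.1% of the exons of Hcn3. Pklr had 466 counts in all libraries together, against 26123 for Hcn3. The library kit is not one that keeps the strand, so reads in that overlap cannot be divided between the genes. Ambiguous reads, 2.20 to 2.30% of a library's total, were left out of the gene counts. The low count of Pklr thus does not show that Hcn3 lost no reads there, and the level of Hcn3 per kb may be too low.

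Hcn4, the slow and strongly cyclic AMP-sensitive HCN gene known as the pacemaker of the heart, was the lowest of the 6 members, with 216 to 882 counts per library. In CFA libraries it had 11.2, 11.7, 10.4 and 10.3 CPM in those labelled KO, against 12.1, 11.5, 10.9 and 13.3 CPM in WT. In naive libraries it had 10.9, 12.1, 11.9 and 13.1 CPM in those labelled KO, against 10.97, 10.2, 10.6 and 11.01 CPM in WT. The order of the labelled KO and WT means is opposite under the 2 treatments, and in both the ranges overlap.

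Cacna1g, which encodes Cav3.1, had group means between 168 and 177 CPM. In CFA libraries it had 169.8, 174, 178 and 180.1 CPM in those labelled KO, against 168, 178, 159.5 and 167 CPM in WT. In naive libraries it had 182, 177, 194 and 155 CPM in those labelled KO, against 165, 166, 189.5 and 180.2 CPM in WT. The highest and the lowest library of all 16 are both naive ones labelled KO, so the spread inside that group covers the other groups.

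Cacna1h, which encodes Cav3.2, the T-type channel best known from pain-sensing neurons of the dorsal root ganglion, had 66.9, 67.0, 61.6 and 69.5 CPM in CFA libraries labelled KO, against 74.0, 69.1, 70.3 and 70.4 CPM in WT CFA libraries. In naive libraries it had 63.7, 69.0, 70.6 and 65.2 CPM in those labelled KO, against 69.2, 66.7, 70.7 and 63.0 CPM in WT. In CFA mice 3 of the 4 libraries labelled KO lie below all WT libraries and the fourth lies among them. The opposite-strand gene Tpsg1 shares 158 exon bases with Cacna1h, or 1.62% of its exons, and had 70 counts over all libraries.

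Cacna1i, which encodes Cav3.3, the slowest of the T-type channels to inactivate, had 116, 117, 113 and 114 CPM in CFA libraries labelled KO, against 101, 123, 113 and 119 CPM in WT CFA libraries. In naive libraries it had 107, 112, 106 and 117 CPM in those labelled KO, against 105, 99.6, 104 and 111 CPM in WT. The naive WT libraries hold the lowest value, and a single WT CFA library, at 101 CPM, lies within their range while the other WT CFA libraries lie above it.

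**Figure D2:**
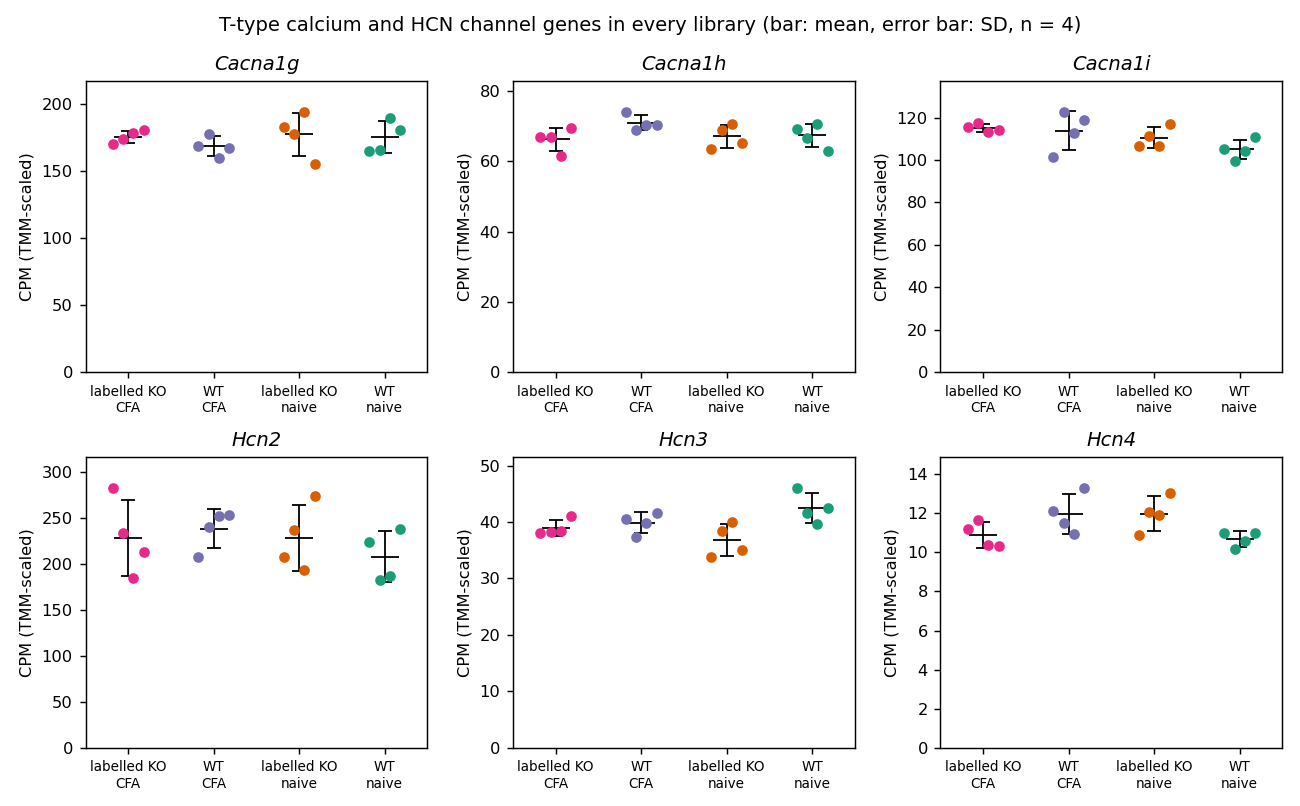
CPM of each channel gene in every library, by group, with the mean and SD (n = 4 libraries a group). The groups overlap in every gene, between genotypes within a treatment and between treatments within a genotype. Hcn2 spreads from 182 to 282 CPM, and naive Hcn3 sits at a mean of 36.8 CPM in libraries labelled KO and 42.4 CPM in WT.

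In no member were the libraries of 2 compared groups free of overlap, which among all tested genes held for 7.23% between genotypes in naive mice, 8.03% between genotypes in CFA mice, 4.29% between treatments in libraries labelled KO and 11.3% between treatments in WT.

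The design asks whether the channel genes differ with genotype in naive mice and in CFA mice, whether CFA alters them in each genotype, and whether the effect of CFA differs between genotypes. None of the 6 members passed an adjusted p of 0.05 in any of these comparisons by edgeR's quasi-likelihood test with Benjamini-Hochberg adjustment over 18350 genes. A value of p above that threshold does not show that a gene was equal in the groups, so the intervals are given below.

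For the libraries labelled KO against WT in naive mice, 0 of 6 members were called, beside 1.45% of all genes, and 2 members had an unadjusted p under 0.05, beside 13.8% of all genes. Hcn3 had a log2 fold change of -0.21 (SE 0.05, 95% interval -0.32 to -0.10) with an adjusted p of 0.0567. DESeq2 called it, at an adjusted p of 0.0235, and no other member. Hcn4 had a log2 fold change of 0.16 (95% interval 0.01 to 0.31, adjusted p = 0.312). The 3 T-type genes and Hcn2 had log2 fold changes of -0.01 to 0.14, and the interval of Hcn2 was the widest, from -0.18 to 0.45.

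Tph2 in naive libraries had 132, 280.0, 438 and 101 CPM in those labelled KO, against 545, 646, 436 and 283 CPM in WT, in the same library order as the Hcn3 values above. The ranges overlap and Tph2 was not called (log2 fold change -1.02, SE 0.53, edgeR adjusted p = 0.426), and of the 10 tested midbrain and hypothalamus markers, Tph2 among them, 0 were called in that comparison. The relay neuron markers, of which 11 of 12 were tested, summed to 759 to 865 CPM in naive libraries labelled KO and 711 to 776 CPM in WT naive libraries, with Gbx2 at or near 0. Of the 11 tested relay markers, 2 were called higher and 0 lower in naive libraries labelled KO, and 8 had positive log2 fold changes. Prkcd, not called there, was at 11.7 ± 1.44 CPM against 13.6 ± 0.345 CPM in WT (SD, n = 4 each). Cbln1, which encodes a secreted synapse organiser, was at 22.1 ± 1.89 CPM against 15.9 ± 1.65 CPM in WT (SD, n = 4 each, log2 fold change 0.47, edgeR adjusted p = 0.0322), and Ntng1 had a log2 fold change of 0.17 (adjusted p = 0.0359). In CFA libraries Cbln1 was lower in those labelled KO than in WT (-0.45, edgeR adjusted p = 0.0282). With CFA it rose in WT (0.58, adjusted p = 0.00737), and its difference between the CFA effects was called (-0.92, adjusted p = 0.0217). In libraries labelled KO it was at 17.4 ± 1.39 CPM with CFA against 22.1 ± 1.89 CPM naive, and 0 of the 11 relay markers were called there. With the scores of relay, of reticular and GABA, and of oligodendrocyte markers as 3 terms in the fit, the log2 fold change of Hcn3 was -0.36 with an SE of 0.11 and an adjusted p of 0.638. Over the 16 libraries Hcn3 had r = 0.69 and rho = 0.59 with Tph2, and r = 0.70 within groups, with no p computed. With the score of midbrain and hypothalamus markers Hcn3 had r = 0.45 (adjusted p = 0.2 by permutation). Within groups that r was 0.73 (adjusted p = 0.0183 by permutation). The deviations from group means were shuffled over all 16 libraries, not inside each group, so p-values within groups may be too small here and below. The part of Tph2 in the Hcn3 difference was not tested. Without WT naive library 3, KO-labelled naive library 7 or WT CFA library 10 the adjusted p of Hcn3 was 0.048, 0.0266 and 0.0498, and without any other single library it lay above 0.05.

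For the libraries labelled KO against WT in CFA mice, 0 of 6 members were called, beside 1.60% of all genes, and 1 member had an unadjusted p under 0.05, beside 12.3% of all genes. That was Cacna1h, with a log2 fold change of -0.10 (SE 0.04, 95% interval -0.18 to -0.01, adjusted p = 0.354). Hcn4 had -0.13 (95% interval -0.27 to 0.01, adjusted p = 0.47), and the other 4 members lay between -0.06 and 0.06. The interval of Hcn3 here was -0.14 to 0.07. DESeq2 called no member.

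For CFA against naive in the libraries labelled KO, 0 of 6 members were called, beside 0.185% of all genes, and no member had an unadjusted p under 0.05, beside 7.81% of all genes. The log2 fold changes ran from -0.13 for Hcn4 to 0.08 for Hcn3. DESeq2 called no member.

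For CFA against naive in WT libraries, 0 of 6 members were called, beside 2.23% of all genes, and 2 members had an unadjusted p under 0.05, beside 17.6% of all genes. Cacna1i had a log2 fold change of 0.12 (SE 0.05, 95% interval 0.02 to 0.22, adjusted p = 0.2). Without WT CFA library 9, the one at 101 CPM, its log2 fold change was 0.17 with an adjusted p of 0.0397. Hcn4 had 0.16 (95% interval 0.02 to 0.31, adjusted p = 0.219) and Hcn2 0.20 (95% interval -0.11 to 0.51, adjusted p = 0.515). The comparisons share groups: the WT naive libraries stand under both the genotype effect in naive mice and the CFA effect in WT, so a low or high value of that group enters both. DESeq2 called no member.

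For the difference between the CFA effects of the genotypes, 0 of 6 members were called, beside 0.0654% of all genes, and 2 members had an unadjusted p under 0.05, beside 9.86% of all genes. The difference of Hcn4 was -0.29 on the log2 scale (SE 0.10, 95% interval -0.50 to -0.09, adjusted p = 0.328). That of Hcn3 was 0.18 (SE 0.08, 95% interval 0.02 to 0.33, adjusted p = 0.454). DESeq2 called no member. Averaged over treatments, the genotype comparison called 0 of 6 members beside 3.73% of all genes, with Hcn3 at -0.12 (adjusted p = 0.0854) and 1 member under an unadjusted 0.05, beside 14.3% of all genes. Averaged over genotypes, the CFA comparison called 0 of 6 members beside 1.81% of all genes, with Cacna1i at 0.09 (adjusted p = 0.202) and 1 member under an unadjusted 0.05, beside 14.6% of all genes. DESeq2 called no member in either average.

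**Figure D3:**
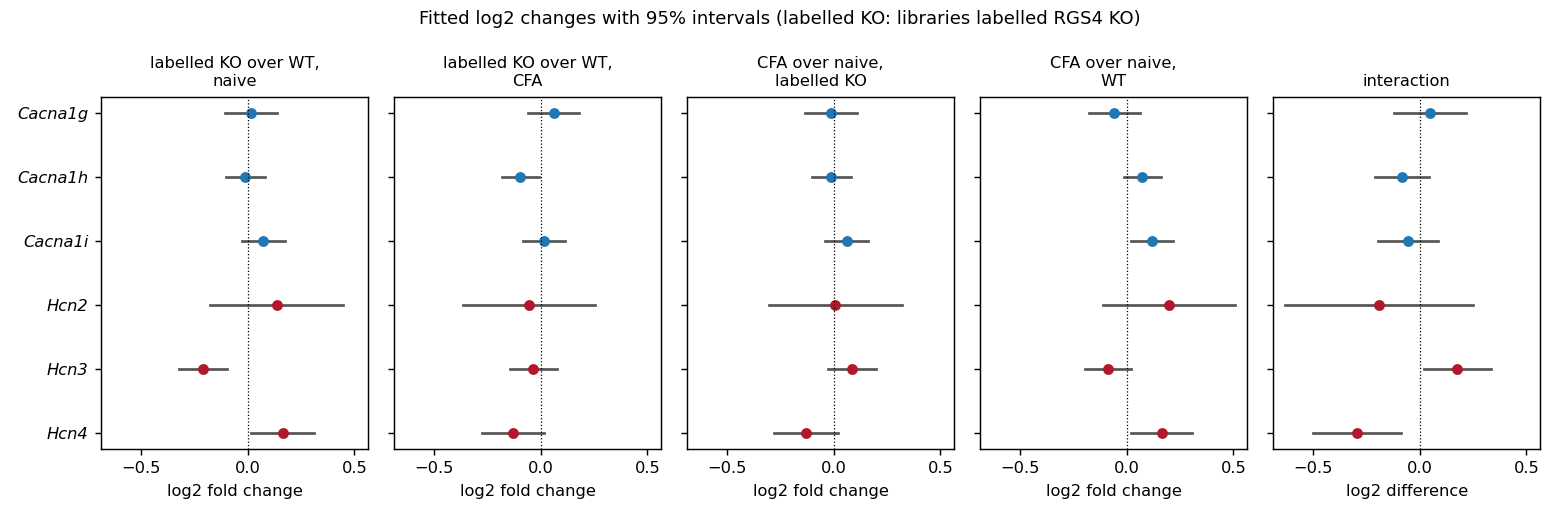
Fitted log2 fold changes of the 6 channel genes with 95% intervals in 4 comparisons, and the difference between the 2 CFA effects (interaction). The interval of Hcn3 in naive mice, -0.32 to -0.10, lies below 0, those of Hcn2 are the widest in all 5 panels, and no gene passed the adjusted threshold.

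Hcn2 moved with the oligodendrocyte markers of the libraries, and about as closely with some GABA neuron genes. Over the 16 libraries its log2(CPM + 1) was correlated with the score of 7 oligodendrocyte markers, at r = 0.88 (Pearson) and rho = 0.88 (Spearman). The permutation p for r was 1e-05, the smallest that 100000 resamples can give, and 0.00066 after adjustment over 66 relations of members with marker scores, depth and GC content, a set chosen after values of these data were seen. Without the 2 libraries farthest from the median score, r was 0.85, and within groups it was 0.92. The 7 markers, all tested, summed to 6921 to 9292 CPM in CFA libraries labelled KO, 8317 to 9443 CPM in WT CFA libraries, 6883 to 11080.0 CPM in naive libraries labelled KO and 6520.0 to 8435 CPM in WT naive libraries. Mbp, the myelin basic protein gene, is among them and none was at 0. Hcn2 had r = 0.91 with Mbp, 0.91 with Gad1 and 0.87 with Pvalb, and 0.91, 0.92 and 0.93 within groups, with no p computed. Gad1 and Pvalb are in the list of reticular and GABA neuron markers. In the fit with the 3 marker scores, this one among them, the log2 fold change of Hcn2 between genotypes was -0.13 in naive mice and 0.17 in CFA mice, the opposite sign of the values without them, and neither passed the threshold.

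Other relations of Hcn2 passed as well. It had r = 0.69 and rho = 0.74 with the score of reticular and GABA neuron markers (permutation p = 0.0037 for r and 0.00196 for rho, adjusted p = 0.0305 and 0.0259), which without the 2 farthest libraries was 0.54, and 0.66 within groups. It had r = -0.75 and rho = -0.77 with the habenula markers (permutation p = 0.00098 for r and 0.00066 for rho, adjusted p = 0.0216 and 0.0176), -0.63 without the 2 farthest and -0.74 within groups. Among 12006 genes of at least 5 CPM, those most like Hcn2 included Rell2 (r = 0.97) and Cdk16 (r = 0.96). No p is given for these, since they were picked as the highest.

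Cacna1h moved with the score of midbrain and hypothalamus neuron genes, though not equally with each gene. Its relation with their score (10 of 12 markers tested) had r = 0.83 and rho = 0.77 (permutation p = 8e-05 for r and 0.0008 for rho, adjusted p = 0.00264 and 0.0176), 0.78 without the 2 farthest libraries and 0.79 within groups. The markers summed to 632 to 1014 CPM in CFA libraries labelled KO, 409 to 1071 CPM in WT CFA libraries, 262 to 1095 CPM in naive libraries labelled KO and 562 to 1250.0 CPM in WT naive libraries. The genes most like Cacna1h were Ret, the receptor of GDNF (r = 0.90), Crhbp (r = 0.88) and Th, the tyrosine hydroxylase of dopamine synthesis (r = 0.85). Th had 25.4, 25.5, 19.6 and 29.7 CPM in CFA libraries labelled KO, against 38.4, 21.3, 27.9 and 29.9 CPM in WT CFA libraries. Cacna1h had r = 0.84 with Slc6a3, but 0.23 with Tph2 and 0.24 with Slc6a4. Within groups these were 0.85, 0.64 and 0.63. With the relay neuron markers Cacna1h had r = -0.57 (adjusted p = 0.102 by permutation) and -0.81 within groups (adjusted p = 0.0066). Cacna1h also had r = -0.72 and rho = -0.70 with the microglia markers (permutation p = 0.00142 for r and 0.0035 for rho, adjusted p = 0.0234 and 0.0385), -0.56 without the 2 farthest libraries and -0.71 within groups.

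Of the remaining members, Hcn4 had r = 0.71 and rho = 0.74 with reticular and GABA neuron markers (permutation p = 0.00224 for r and 0.00163 for rho, adjusted p = 0.0296 and 0.0259), 0.66 without the 2 farthest libraries and 0.53 within groups. Those 10 markers, all tested, summed to 1728 to 1978 CPM in CFA libraries labelled KO, 1827 to 2035 CPM in WT CFA libraries, 1770.0 to 2151 CPM in naive libraries labelled KO and 1715 to 1845 CPM in WT naive libraries, and Dlx1 was the lowest of them at a mean of 0.169 CPM. Cacna1i had r = -0.69 with habenula markers (permutation p = 0.00363, adjusted p = 0.0305), -0.59 without the 2 farthest libraries and -0.70 within groups, and its rho of -0.65 did not pass (permutation p = 0.00828, adjusted p = 0.0607). Hcn3 had r = -0.68 with the relay neuron markers (permutation p = 0.00355, adjusted p = 0.0305), -0.63 without the 2 farthest libraries and -0.64 within groups, and its rho of -0.59 did not pass (permutation p = 0.0185, adjusted p = 0.0941). No member passed with depth or with the GC contrast. Of the 66 relations, 8 passed by r, of Hcn2, Hcn3, Hcn4, Cacna1h and Cacna1i. By rho 6 passed, and within groups 11 did. Those 11 include Hcn3 with pan-neuronal markers (r = 0.65) and Cacna1i with oligodendrocyte markers (r = 0.64), at an adjusted p of 0.0469 by permutation for each. They do not include Hcn4 with the reticular and GABA neuron markers (adjusted p = 0.106 within groups). Cacna1g, the relay neuron T-type gene, had none by any of the 3, with its lowest adjusted p within groups at 0.0553 for the oligodendrocyte markers.

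**Figure D4:**
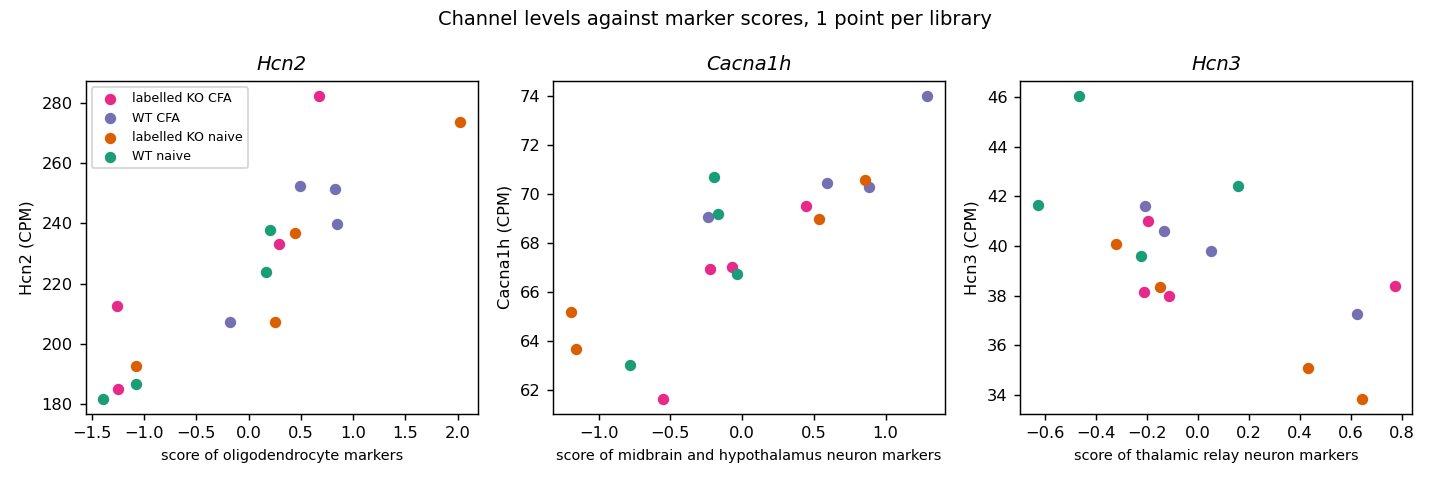
CPM of Hcn2, Cacna1h and Hcn3 against the score of a marker list, 1 point per library, coloured by group. Hcn2 climbs with the oligodendrocyte score (r = 0.88), Cacna1h with the midbrain and hypothalamus score (r = 0.83) and Hcn3 declines with the relay score (r = -0.68), and in each panel the 4 groups mix.

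None of 15 pairs of members passed after adjustment. The highest was Cacna1i with Hcn2 (r = 0.68, rho = 0.69, permutation p = 0.00419 and 0.00397, adjusted p = 0.0629 and 0.0596), at 0.61 without the 2 farthest libraries and 0.66 within groups. Hcn2 with Hcn4 had r = 0.56 and Cacna1g with Hcn2 r = -0.55 (adjusted p = 0.141 for each, by permutation). Other nearest genes were Ylpm1, Meg3 and Apex2 for Cacna1g (r = 0.85 to 0.88), Tln2, Chrna4 and Pde1b for Cacna1i (r = 0.89 to 0.92), Gramd1a, Gpr4 and Gata3 for Hcn3 (r = 0.82 to 0.84), and Timm23, Tmem242 and Ndufa6 for Hcn4 (r = 0.84 to 0.86).

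The genes that work with these channels were looked at from lists. Of all genes tested, 2.23% were called for CFA in WT, and with the 3 marker scores as terms 0 were. In that comparison 7 of 7 oligodendrocyte markers had positive log2 fold changes, with a median of 0.23, and none was called. Of the 10 tested midbrain and hypothalamus markers 3 were called higher there, with a median of 1.25, and of the 11 tested relay markers 2 were called higher, with a median of 0.14. The part of these cell types in the calls below was not tested beyond the fit with the marker scores, which hold no midbrain score. Of 15 channel partners, 1 was higher and 1 was lower with CFA in WT libraries: Wwp1, a ubiquitin ligase of Cav3.2, rose to 80.4 ± 3.69 CPM in CFA against 70.2 ± 0.935 CPM in naive WT (log2 fold change 0.20, edgeR adjusted p = 0.0348), and Flna, an actin-binding filamin, fell to 98.6 ± 3.88 CPM against 117 ± 2.60 CPM (-0.24, adjusted p = 0.0241; SD, n = 4 each). Lrmp, a regulator of Hcn4, was higher in the libraries labelled KO averaged over treatments (0.44, adjusted p = 0.0315), where 3.73% of all genes were called, with 0.738 to 1.37 CPM over all libraries. With the marker scores the log2 fold change was 0.19 for Wwp1 (edgeR adjusted p = 0.855), -0.29 for Flna (0.817) and 0.345 for Lrmp (0.453). For Lrmp the adjusted p was 0.0637 by DESeq2, 0.327 after thinning to the shallowest library and 0.0523 with no filter on low counts. Leaving out KO-labelled naive libraries 7 and 8 together gave 0.0817. Of the 16 fits that leave out a library, 7 lost the call of Wwp1, 6 that of Flna and 11 that of Lrmp. The median log2 fold change of the 15 partners with CFA in WT was 0.02.

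Of 19 tested enzymes that make or break down cyclic AMP, the ligand of HCN channels, Adcy2, an adenylyl cyclase, differed between genotypes in CFA mice. It was higher in CFA libraries labelled KO, at 130.4 ± 4.79 CPM against 114 ± 4.61 CPM in WT CFA libraries (log2 fold change 0.20, adjusted p = 0.00631 by edgeR). In naive libraries it was at 129.3 ± 5.265 CPM in those labelled KO and 120.6 ± 4.03 CPM in WT (SD, n = 4 each). Pde10a, a phosphodiesterase, rose with CFA in both genotypes: to 87.8 ± 1.99 CPM against 74.9 ± 3.28 CPM naive in libraries labelled KO (0.23, adjusted p = 0.00142) and to 85.8 ± 1.65 CPM against 76.6 ± 0.715 CPM naive in WT (0.16, adjusted p = 0.00959). Pde7a fell by 0.11 on the log2 scale with CFA averaged over genotypes (adjusted p = 0.0293), and the other 16 tested enzymes were called in none of the 7 comparisons. Of all genes, 1.60% were called for genotype in CFA mice and 0.185% for CFA in libraries labelled KO. For CFA in WT the share was 2.23%, and for CFA averaged over genotypes 1.81%. The calls of Adcy2, and of Pde10a in libraries labelled KO, were kept in every alternative run, including the marker scores. That of Pde10a in WT was lost with the scores alone (log2 fold change 0.05, edgeR adjusted p = 0.957). The call of Pde7a was lost with the scores (-0.15, adjusted p = 0.325), after thinning (adjusted p = 0.0714) and in 8 of the 16 fits that leave out a library.

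Of 12 other conductances of bursting and rest, Kcnn1, a small-conductance calcium-activated potassium channel, rose to 14.5 ± 0.529 CPM in WT CFA libraries against 12.1 ± 0.678 CPM in WT naive libraries (0.26, edgeR adjusted p = 0.0344). Atp2a2, the calcium pump of the endoplasmic reticulum, rose to 956 ± 20.8 CPM against 875 ± 20.7 CPM (0.13, adjusted p = 0.0349; SD, n = 4 each). Kcnn2 was lower in the libraries labelled KO averaged over treatments (-0.42, adjusted p = 0.0407), though its WT naive libraries ran from 26.9 to 49.99 CPM. With the marker scores the log2 fold change was 0.07 for Kcnn1 (edgeR adjusted p = 0.979), 0.06 for Atp2a2 (0.929) and -0.54 for Kcnn2 (0.109). After thinning the adjusted p was 0.0529 for Atp2a2 and 0.0873 for Kcnn2. For Kcnn2 it was 0.0663 with no filter and 0.159 without KO-labelled naive libraries 7 and 8. Of the 16 fits that leave out a library, 5 lost the call of Kcnn1, 6 that of Atp2a2 and 15 that of Kcnn2. The 7 high-voltage calcium pore genes and the 8 auxiliary subunit genes had 0 calls in all 7 comparisons by edgeR. Of all genes, 0.0654 to 3.73% were called in these comparisons, so 0 calls in lists this short does not set them apart.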

How the data were processed

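The deposited files hold whole-number read counts per gene for each of 16 libraries, deposited without normalization; their 5 summary lines have the form that HTSeq writes. TopHat, DESeq2 and mm10 are named in the submitters' processing notes without versions. Each table lists 38924 genes, and the summary lines, left out here, held 38.0 to 39.9% of a library's total, mostly reads with more than one alignment. Per the labels' protocols, each replicate pooled tissue from 2 mice and libraries were made with a TruSeq RNA kit, a kind that does not keep the strand. Gene names, positions, exon lengths and coding sequences came from GENCODE M21 (37607 of 38924 IDs matched by ID without version); the authors' annotation release is not given in the sources used here. The members and gene lists were chosen with earlier results of these data known.

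Counts were scaled by TMM, given as CPM of reads in genes, and tested with edgeR 4.0.16 (robust quasi-likelihood, group means, all 16 libraries), keeping genes by filterByExpr with a minimum count of 10 (18350 genes, adjusted p under 0.05). Alternatives were DESeq2 1.42.0, RLE scaling, other filters, fewer groups, thinning, 3 marker scores as covariates, and libraries left out. Named genes were the 6 members, at most 4 called genes from each list by lowest adjusted p, and the 3 nearest genes of each member, of which 1 is not reported here. Marker scores are mean z-scores of log2(CPM + 1) over the list. Correlations used 100000 permutations. Those within groups shuffled deviations from the group means over all 16 libraries, so their p-values may be too small. Chi-square per degree of freedom between replicate libraries was 3.55 to 13.7, so no 2 libraries agreed within sampling noise. Tests were checked on simulated counts. p-values measure the spread between pooled samples.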

Additional observations from a re-analysis of the deposited data

Results flagged for a closer look

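Hcn3 in the CFA libraries labelled KO had one library apart from the other 3: library 16 stood at 41.0 CPM, against 38.0 to 38.4 CPM in the others. It was the only one of 24 member and group checks, by the gap to the nearest library as a share of the range (Dixon's criterion), that passed, and chance passes about 1 in 20 such groups.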

How the results depend on the processing

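Over 24 settings no member's called value changed sign, since none was called. Of 318 member results under settings other than leaving out a single library, 293 kept their direction and side of the threshold, 3 came under it and 22 changed sign. Of 672 with a library left out, 634 kept both, 6 came under the threshold and 32 changed sign. The cause of these changes was not tested.

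The number of members called was 1 in place of 0 for genotype in naive mice with no filter on low counts (Hcn3, adjusted p = 0.0205) and with DESeq2, and 1 for the average genotype effect with no filter (Hcn3, adjusted p = 0.0409). With a library left out it ranged from 0 to 1 for genotype in naive mice, CFA in WT, and both averages.

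Genes called for genotype in naive mice numbered 266, but 6 with the 3 marker scores, 92 without libraries 7 and 8 labelled KO, 459 with DESeq2, and 135 to 296 with a library left out. For genotype in CFA mice they numbered 294, but 179 after thinning to the shallowest library, 155 with marker scores, 465 with DESeq2, and 195 to 407 with a library left out. For CFA in libraries labelled KO there were 34, but 17 without libraries 7 and 8, 87 with DESeq2, and 16 to 42 with a library left out. For CFA in WT there were 409, but 197 thinned, 0 with marker scores, 681 without libraries 7 and 8, 766 with DESeq2, and 178 to 754 with a library left out. For the interaction there were 12, but 31 with no filter, 4 thinned, 0 with marker scores, 90 with DESeq2, and 5 to 27 with a library left out. For the average genotype effect there were 685, but 443 thinned and 281 with marker scores. For the average CFA effect there were 332, but 62 with marker scores, 558 with DESeq2, and 204 to 493 with a library left out.

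Sign changes of log2 fold changes were these. After thinning: Cacna1h 0.012 for genotype in naive mice, Cacna1i -0.012 for genotype in CFA mice, Cacna1g 0.0034 and Hcn2 -0.0022 for CFA in libraries labelled KO, Hcn4 -0.0023 for the average genotype effect, and Hcn3 0.028 and Hcn4 -0.0040 for the average CFA effect. With marker scores: Cacna1h 0.069, Cacna1i -0.18 and Hcn2 -0.13 for genotype in naive mice, Hcn2 0.17 and Hcn3 0.050 for genotype in CFA mice, Cacna1i -0.18 and Hcn2 -0.11 for CFA in WT, Cacna1g -0.055, Cacna1i 0.33 and Hcn2 0.30 for the interaction, and Cacna1i -0.018 and -0.017 for the average genotype and CFA effects. Without libraries 7 and 8: Cacna1h 0.0054 for CFA in libraries labelled KO, Hcn4 -0.017 for the average genotype effect and Hcn3 0.011 for the average CFA effect.

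With a library left out, the ranges that crossed 0 were, for genotype in naive mice, Cacna1g -0.029 to 0.073 and Cacna1h -0.040 to 0.016, for genotype in CFA mice Cacna1i -0.036 to 0.053 and Hcn2 -0.18 to 0.031, for CFA in libraries labelled KO Cacna1g -0.071 to 0.031, Hcn2 -0.12 to 0.11 and Cacna1h -0.038 to 0.019, for the interaction Cacna1g -0.012 to 0.090, for the average genotype effect Hcn2 -0.020 to 0.083 and Hcn4 -0.0071 to 0.044, and for the average CFA effect Hcn3 -0.024 to 0.017 and Hcn4 -0.010 to 0.041.

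With the longest transcript as length, Cacna1g was at 20.7 and Cacna1h at 8.25 CPM per kb. Between members, Cacna1g and Cacna1h had rho = 0.0088 and r = 0.19 within groups, Cacna1g and Hcn3 r = 0.0053 within groups, and Hcn3 and Hcn4 r = 0.23 within groups, each opposite in sign to the pooled r. Depth limits Hcn4 most, with as few as 216 counts in a library. No paired analysis was possible because the replicate numbers run from 1 to 16 and no number is shared between groups.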
